A study of Mus musculus with 6 samples.

Results

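The genes described here encode the mitochondrial respiratory chain and the ATP synthase. They were taken by symbol: every probe set that the authors' deposited table gives 1 gene symbol, where that symbol starts with Nduf, Sdha, Sdhb, Sdhc, Sdhd, Uqcr, Cox4i, Cox5, Cox6, Cox7, Cox8 or Atp5, or is Cyc1 or Cycs. Cox7a1 and Cox8b, forms known from brown fat and muscle, were left out. This gave 81 genes on 168 probe sets, of 20991 genes on 40149 probe sets with 1 symbol, and 7 further probe sets with several symbols were not used. Each gene is represented by its probe set with the highest mean. By the complex the protein belongs to, 35 genes fell to complex I, 4 to complex II, 8 to complex III, 14 to complex IV, 15 to complex V, 1 to cytochrome c and 4 to assembly and associated factors. Ndufa4, named for complex I, was counted in complex IV, where its protein is now placed.

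The arrays measured total RNA of cleared mammary fat pads, labelled mammary stroma, of mice aged 4 weeks: 3 arrays came from Rarb -/- mice, called Rarb-null, and 3 from wild-type littermates. Rarb encodes retinoic acid receptor beta, a nuclear receptor. A label shared by all 6 samples mentions ErbB2 and young mice, without saying whether the animals carried a transgene, so what the groups share beyond tissue and age is uncertain. The sources used here do not say whether an array stands for 1 mouse or for pooled tissue. The spread behind each p-value is therefore that of the arrays, and may be technical.

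The respiratory chain moves electrons from NADH (complex I) and succinate (complex II) through complex III and cytochrome c to oxygen at complex IV, and complexes I, III and IV pump protons across the inner mitochondrial membrane. Complex V, the ATP synthase, lets the protons back and makes ATP. Complex II is also an enzyme of the citric acid cycle, and all of its subunits come from nuclear genes, while the other complexes also hold subunits made from mitochondrial DNA. In fat tissue, brown adipocytes carry many more mitochondria than white adipocytes. In a bulk tissue sample such as this, fewer cells of a type and less RNA per cell cannot be told apart.

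Expression is given as the log2 RMA value that the authors deposited for the probe set, where 1 unit is a 2-fold difference in signal. Differences are Rarb-null minus wild type, intervals are 95% intervals from limma, and group values are means ± SD over 3 arrays each. The array medians lay between 6.78 and 6.85. Rarb itself read 6.50, 6.61 and 7.41 on Rarb-null arrays 1 to 3 and 6.95, 6.01 and 6.65 on wild-type arrays 1 to 3; the difference was 0.30 with an interval from -0.43 to 1.03 (adjusted p in limma 0.951). No source used here gives the part of Rarb that was deleted or that this probe set covers, so it checks nothing about the labels. Of the fat pad markers, Adipoq (adiponectin) read 14.38, 14.52 and 14.39 on Rarb-null arrays and 14.62, 14.35 and 14.62 on wild-type arrays. The epithelial marker Epcam read 13.46, 13.46 and 13.30 on Rarb-null arrays and 12.85, 13.61 and 12.71 on wild-type arrays, although the label calls the fat pads cleared. Cycling cell genes set the arrays apart across genotypes: their mean deviation from each gene's own mean was 1.22, 1.24 and -1.47 on Rarb-null arrays 1 to 3 and -1.07, 1.32 and -1.25 on wild-type arrays 1 to 3.

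No respiratory chain or ATP synthase gene passed the test between Rarb-null and wild-type stroma. In limma 0 of 45037 probe sets (0%) had an adjusted p under 0.05; the smallest was 0.908, and 2351 had an unadjusted p under 0.05. On Rarb-null arrays 34 of the 81 genes had a higher mean and 47 a lower mean; the median difference was -0.04, against 47.2% higher and a median of -0.01 over all 20991 genes. Most of the genes gave bright signals: 73 had a mean above 10, and Ndufc2, Cox4i2 and Cox6b2 had a mean under 8. The interval left out a 2-fold difference either way for 77 of the 81 genes, the others being Ndufb10, Ndufs5, Ndufb2 and Ndufs1, and a 1.5-fold difference for 33. The direction of most genes rested on single arrays, since the count with a higher mean was 58 without Rarb-null array 2, 14 without Rarb-null array 3 and 18 without wild-type array 2. In all, 34 genes kept their sign whichever array was left out, 12 of them higher and 22 lower. Of 51 genes with other probe sets, 25 had all of those with the same sign as the brightest. Among members named below, no other probe set of Ndufs1, Ndufs7, Ndufv1, Ndufb5, Sdhc, Sdhd, Uqcrc2, Cox5a, Cox8a or Atp5g1 had the same sign.

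The groups did not overlap at 6 of the genes, all of them lower on Rarb-null arrays and none higher. Over all genes the share was 6.56% for lower and 4.03% for higher, so 6 of 81 (7.41%) lies near the background. An unadjusted p under 0.05 was reached by 5 genes with a lower mean and 0 with a higher mean, where all genes gave 3.36% and 1.92%. The 5 were Ndufb10, Cox6c, Ndufa2, Ndufs5 and Ndufa12l. In the authors' deposited table the same 5 were the members with a p-value under 0.05, from 0.0208 for Ndufb10 to 0.0416 for Ndufa12l.

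**Figure D1:**
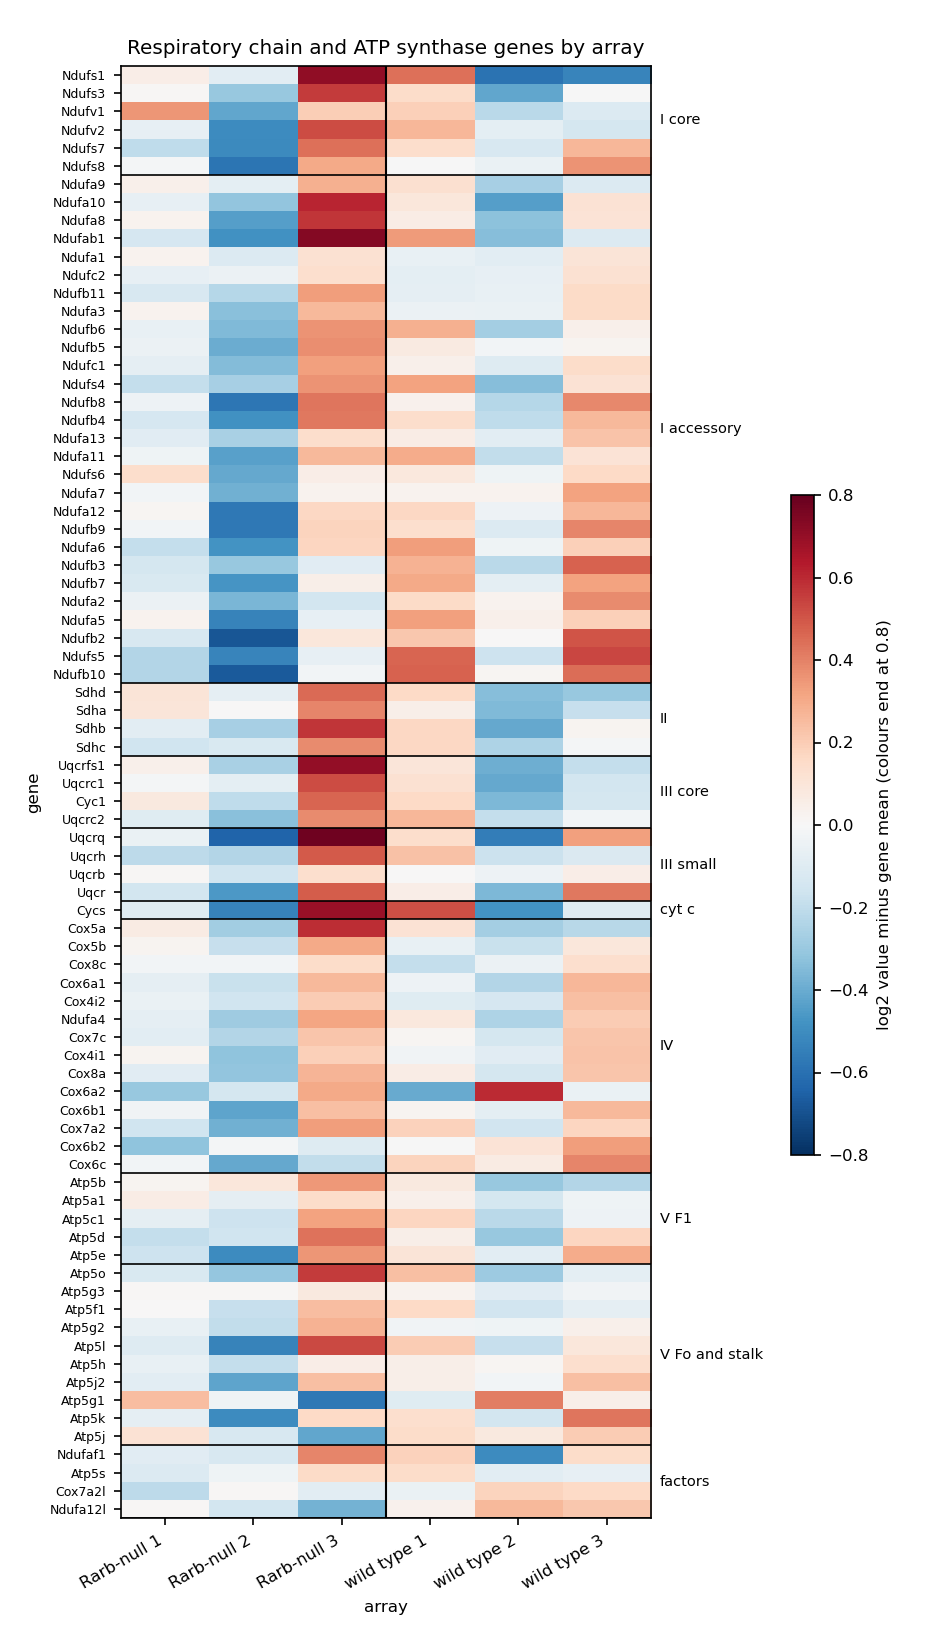
Colour shows the log2 value minus the gene's mean over 6 arrays for 80 of the 81 genes (down the page, by complex and role, ordered within each by the difference) and each array (across, Rarb-null left of wild type). The columns of Rarb-null array 3 and Rarb-null array 2 stand out as the highest for 51 and the lowest for 52 of the 81 genes.

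Promoters were read to describe motifs in the members' sequences. Whether the motifs bear on the expression values was not tested. The RefSeq promoter table (assembly GRCm38.p6) holds the stretch from 250 bases before to 50 bases after a gene's annotated start; 66 of the 81 genes matched it, with 71 promoters. The motifs searched, on both strands, were GCGCATGCG for NRF1 (nuclear respiratory factor), CCGGAAGT for the ETS family that includes GABPA, TCAAGGTCA for the estrogen-related receptors (ERR), AAGATGGC for YY1, and AGGTCA repeated with a gap of 5 bases, the DR5 element known to bind retinoic acid receptors. NRF1 letters were in 9 of the 71 promoters (12.7%) against 1.75% of all 32851 promoters, YY1 letters in 10 (14.1%) against 2.75%, ETS letters in 5 (7.04%) against 3.89%, and ERR letters in 2 (2.82%) against 0.42%. The DR5 letters were in 0 of the 71, against 3 of all promoters (0.01%), and no match says only that these letters are not in this window. Promoters with YY1 letters were 7 of the 33 of complex I and 3 of the 17 of complex V, which are similar shares. In 8 of the 10 the match ran along the gene's strand and began between bases 273 and 289 of the 300, just after the start; over all promoters with the letters this held for 124 of 903 (13.7%), but the window was drawn from these matches. A match is a description and not a bound site.

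The following promoters are shown for the member with the largest difference (Ndufb10), a complex I gene with the YY1 letters after its start (Ndufa9), the complex II gene with the ERR letters (Sdhd), and a complex III gene and cytochrome c with the NRF1 letters (Uqcrc1, Cycs). They run along the gene's strand, with a match in capitals. Ndufb10 (chr17:24724374-24724673, minus strand) held none of the motifs. In Ndufa9 (chr6:126849095-126849394, minus strand) the capitals mark YY1 at bases 280 to 287. In Sdhd (chr9:50603800-50604099, minus strand) they mark ERR, read on the other strand, at bases 287 to 295. In Uqcrc1 (chr9:108936398-108936697, plus strand) they mark NRF1 matches on both strands, which overlap, at bases 281 to 290. In Cycs (chr6:50566520-50566819, minus strand) they mark NRF1, read on the other strand, at bases 190 to 198.
Ndufb10: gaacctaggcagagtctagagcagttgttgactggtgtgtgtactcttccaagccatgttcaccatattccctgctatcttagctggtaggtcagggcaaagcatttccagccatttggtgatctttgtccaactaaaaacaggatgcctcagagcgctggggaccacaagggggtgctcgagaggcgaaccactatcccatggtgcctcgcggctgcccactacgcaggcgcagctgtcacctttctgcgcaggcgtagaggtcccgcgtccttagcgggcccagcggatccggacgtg
Ndufa9: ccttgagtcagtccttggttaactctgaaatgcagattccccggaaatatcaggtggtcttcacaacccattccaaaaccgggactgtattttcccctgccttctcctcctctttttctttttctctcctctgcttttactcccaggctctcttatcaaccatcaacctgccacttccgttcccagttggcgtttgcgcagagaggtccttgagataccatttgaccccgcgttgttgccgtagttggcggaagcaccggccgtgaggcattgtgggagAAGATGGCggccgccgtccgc
Sdhd: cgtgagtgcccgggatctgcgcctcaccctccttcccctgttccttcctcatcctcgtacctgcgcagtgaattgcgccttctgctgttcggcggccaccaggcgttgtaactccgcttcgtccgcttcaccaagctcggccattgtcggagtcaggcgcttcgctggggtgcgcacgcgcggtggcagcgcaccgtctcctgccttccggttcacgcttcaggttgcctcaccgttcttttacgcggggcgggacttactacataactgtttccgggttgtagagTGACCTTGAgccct
Uqcrc1: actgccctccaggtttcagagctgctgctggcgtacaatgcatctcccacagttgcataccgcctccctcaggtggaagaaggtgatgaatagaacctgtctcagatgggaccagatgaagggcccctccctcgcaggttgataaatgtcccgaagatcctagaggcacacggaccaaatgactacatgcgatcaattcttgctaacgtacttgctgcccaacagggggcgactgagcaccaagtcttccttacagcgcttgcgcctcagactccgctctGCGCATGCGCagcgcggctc
Cycs: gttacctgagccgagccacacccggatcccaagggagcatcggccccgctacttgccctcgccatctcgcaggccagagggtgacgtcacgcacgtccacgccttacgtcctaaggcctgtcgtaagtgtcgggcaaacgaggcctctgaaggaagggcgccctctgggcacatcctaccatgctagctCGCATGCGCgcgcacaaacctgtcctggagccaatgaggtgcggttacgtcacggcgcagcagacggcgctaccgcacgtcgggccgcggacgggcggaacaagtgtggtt

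Complex I takes electrons from NADH. Its 7 core subunits measured here carry the flavin and the iron-sulfur clusters, and the 28 accessory subunits surround them. The accessory genes were mostly lower on Rarb-null arrays (22 of 28, median difference -0.13), and the core genes were mixed (4 higher and 3 lower, median 0.09). Over all 35 genes, 10 were higher and 25 lower with a median of -0.13. Without Rarb-null array 2 the accessory median was 0.04, the median of the 35 was 0.05 and 23 of them were higher. Without Rarb-null array 3 the core median was -0.06, the median of the 35 was -0.28 and 4 of them were higher. With the cycling cell list mean as a covariate, a check added after the data had been seen, the median of the 35 was 0.03. Over all members that covariate raised the number with a higher mean. A brown adipocyte list mean as covariate, added in the same way, lowered it, and neither fit tests cell types.

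Ndufb10, an accessory subunit of the membrane arm, had the largest difference of all 81 genes. It read 9.78, 9.34 and 9.99 on Rarb-null arrays and 10.49, 10.03 and 10.46 on wild-type arrays, with means of 9.70 ± 0.33 and 10.32 ± 0.26 (SD, n = 3 each). The groups did not overlap, but Rarb-null array 3 and wild-type array 2 were only just apart. The difference was -0.62, a fold of 0.651, with an interval from -1.10 to -0.14, an unadjusted p of 0.0182 and an adjusted p of 0.908 in limma.

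Ndufs5, an accessory subunit of the membrane arm, read 10.49, 10.19 and 10.66 on Rarb-null arrays and 11.19, 10.56 and 11.26 on wild-type arrays. The groups overlapped, because wild-type array 2 lay below Rarb-null array 3, and the difference was -0.56 with an interval from -1.06 to -0.05. Ndufa2, an accessory subunit of the matrix arm, read 12.63, 12.31 and 12.53 on Rarb-null arrays and 12.83, 12.71 and 13.06 on wild-type arrays. Here the groups did not overlap, and the difference was -0.37 with an interval from -0.70 to -0.05. The matrix arm subunit Ndufa5 read 12.53, 11.97 and 12.44 on Rarb-null arrays and 12.83, 12.54 and 12.69 on wild-type arrays. The difference of Ndufa5 was -0.38 with an interval from -0.78 to 0.025. Its groups were kept apart by the narrow gap between Rarb-null array 1 and wild-type array 2. Each of these had an adjusted p of 0.908 in limma.

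The core genes were mixed in direction. Ndufs1, the large subunit with iron-sulfur clusters, had the highest difference of all 81 genes. It read 11.72, 11.59 and 12.38 on Rarb-null arrays and 12.11, 11.08 and 11.14 on wild-type arrays. Wild-type array 1 lay above 2 of the Rarb-null arrays, so the groups overlapped, and the difference of 0.45 had an interval from -0.31 to 1.21 (adjusted p in limma 0.925). A dim other probe set of Ndufs1, with a mean of 4.26, differed by -0.06. Ndufs3 differed by 0.18, while Ndufs7, which carries the last iron-sulfur cluster, differed by -0.18 and Ndufs8 by -0.20. Ndufv1, which holds the NADH site and the flavin, differed by 0.09 on its brightest probe set and by -0.21 and -0.13 on its other probe sets. Among accessory genes, Ndufa9 had the highest difference, 0.16, and Ndufb5 differed by -0.05. Ndufc2 was represented only by a dim probe set that read 5.61, 5.63 and 5.81 on Rarb-null arrays and 5.59, 5.61 and 5.80 on wild-type arrays.

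Complex II, succinate dehydrogenase, was the complex with the highest median difference, 0.24, and all 4 of its genes had a higher mean on Rarb-null arrays. Sdha, the flavin subunit that oxidises succinate, read 13.51, 13.41 and 13.80 on Rarb-null arrays and 13.46, 13.06 and 13.23 on wild-type arrays. Sdhd, a membrane anchor, read 11.66, 11.49 and 12.01 on Rarb-null arrays and 11.72, 11.22 and 11.25 on wild-type arrays. Both genes overlapped between the groups only through wild-type array 1, which lay among the Rarb-null arrays. Their differences were 0.32 (interval from -0.04 to 0.69) and 0.33 (interval from -0.12 to 0.77), with adjusted p of 0.908 and 0.911 in limma. The iron-sulfur subunit Sdhb differed by 0.15 and the second membrane anchor, Sdhc, by 0.07. All of the complex II genes were highest on Rarb-null array 3 and lowest on wild-type array 2, and without either array only 2 of the 4 were higher. The other probe sets of complex II did not share the direction: 1 was higher and 3 were lower, with a median of -0.04. The Sdha probe set among them that is bright differed by 0.26, and the others, of Sdha, Sdhc and Sdhd, by -0.02, -0.08 and -0.06.

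Complex III passes electrons from quinol to cytochrome c. Of its 8 genes 5 were higher and 3 lower, with a median difference of 0.04, or of -0.14 without Rarb-null array 3 and -0.04 without wild-type array 2. Of the core and catalytic genes, Uqcrfs1 (the Rieske iron-sulfur protein) had a difference of 0.32, Uqcrc1 of 0.29 and Cyc1 (cytochrome c1) of 0.23, and Uqcrc2 differed by -0.04. Uqcrfs1 read 12.67, 12.37 and 13.33 on Rarb-null arrays and 12.72, 12.24 and 12.43 on wild-type arrays. Rarb-null array 3 stood well above the other arrays, and the interval ran from -0.27 to 0.92 (adjusted p in limma 0.931). The small subunits were evenly split, 2 higher and 2 lower, from -0.08 for Uqcr (now Uqcr11) to 0.05 for Uqcrq. Uqcrq had the widest range of all 81 genes, 1.42: it read 12.04, 11.45 and 12.86 on Rarb-null arrays and 12.23, 11.53 and 12.42 on wild-type arrays. Cycs, the soluble electron carrier cytochrome c, read 12.19, 11.75 and 12.98 on Rarb-null arrays and 12.81, 11.81 and 12.19 on wild-type arrays. Its groups covered the same range, and the difference was 0.04 with an interval from -0.80 to 0.88.

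Complex IV, cytochrome c oxidase, reduces oxygen, and its catalytic subunits come from mitochondrial DNA and are not among the members. Of its 14 nuclear genes 4 were higher and 10 lower, with a median difference of -0.07, or of 0.06 without Rarb-null array 2 and 0.02 without wild-type array 3. Cox6c had the smallest unadjusted p of the complex. It read 13.21, 12.82 and 13.03 on Rarb-null arrays and 13.40, 13.30 and 13.62 on wild-type arrays, with means of 13.02 ± 0.19 and 13.44 ± 0.16 (SD, n = 3 each). The groups did not overlap; the difference was -0.42 with an interval from -0.76 to -0.09, an unadjusted p of 0.0207 and an adjusted p of 0.908 in limma. Its other probe set had the same sign. Cox6b2, known as the testis form of subunit 6b, also did not overlap, but on a dim probe set with means of 5.98 ± 0.16 and 6.27 ± 0.17 for Rarb-null and wild type (SD, n = 3 each).

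The remaining complex IV genes differed by less. Cox5a, a structural subunit on the matrix side, had the highest difference, 0.25, on its brightest probe set, whereas its other probe sets gave -0.03 and -0.09. Cox5b differed by 0.10. Cox4i1, the common form of a subunit that regulates the enzyme, differed by -0.07, and Cox4i2, the form known from lung and low oxygen, by -0.01 on a dim probe set. Cox6b1 differed by -0.14, Cox7a2 by -0.14 and Cox8a by -0.09. Cox6a1, the common form of subunit 6a, differed by 0.01, or by -0.02 when each array was centred on its median. Cox6a2, the form of heart and skeletal muscle, read 7.75, 7.92 and 8.36 on Rarb-null arrays and 7.65, 8.65 and 8.01 on wild-type arrays, highest on wild-type array 2. The skeletal muscle list was highest on that array too, with mean deviations of -0.93, -0.37 and 0.85 on Rarb-null arrays and -0.59, 2.17 and -1.13 on wild-type arrays. Its part in the Cox6a2 value was not tested.

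The 2 genes left out of the members varied far more. Cox7a1 read 7.32, 5.62 and 10.02 on Rarb-null arrays and 8.09, 6.34 and 7.86 on wild-type arrays. Cox8b read 8.85, 7.85 and 10.09 on Rarb-null arrays and 9.04, 8.30 and 9.59 on wild-type arrays. Both were highest on Rarb-null array 3 and lowest on Rarb-null array 2, and their ranges of 4.40 and 2.24 exceeded that of every member.

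Complex V was close to even, with 8 genes higher, 7 lower and a median difference of 0.01, or -0.0099 when each array was centred on its median. Without Rarb-null array 3 the median was -0.15, and without wild-type array 2 it was -0.08. Of the catalytic F1 part, Atp5b (the beta subunit, where ATP is made) read 14.30, 14.37 and 14.63 on Rarb-null arrays and 14.36, 13.98 and 14.05 on wild-type arrays. Only wild-type array 1 reached the Rarb-null values; the difference was 0.31 with an interval from -0.04 to 0.65 (adjusted p in limma 0.908). Atp5a1, the alpha subunit, differed by 0.09 on its brightest probe set, with overlap between the groups. A nearly as bright probe set of Atp5a1 read 14.10, 14.19 and 14.36 on Rarb-null arrays and 14.03, 13.73 and 13.52 on wild-type arrays. There the groups did not overlap and the difference was 0.46, while a dimmer probe set differed by -0.41. The probe sets of this gene thus disagreed. Atp5c1, the central shaft, differed by 0.06. In the membrane part and the stalk 4 genes were higher and 6 lower. Of the genes for the proton-carrying c subunit, Atp5g1 differed by -0.24, Atp5g2 by 0.01 (-0.0099 after centring) and Atp5g3 by 0.06. Atp5g3 was the steadiest of all 81 genes, with a range of 0.17, and read 14.36, 14.35 and 14.42 on Rarb-null arrays and 14.37, 14.26 and 14.32 on wild-type arrays. Atp5g1 ran against most members, with 9.75, 9.47 and 8.93 on Rarb-null arrays and 9.40, 9.91 and 9.55 on wild-type arrays, lowest on Rarb-null array 3. The stalk gene Atp5j had the lowest difference of the complex, -0.28 (interval from -0.63 to 0.07), Atp5o differed by 0.08, and Atp5l differed by -0.07.

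Of the 4 factors that the symbols bring in, Ndufa12l (now Ndufaf2), an assembly factor of complex I, read 8.77, 8.61 and 8.38 on Rarb-null arrays and 8.79, 9.02 and 8.98 on wild-type arrays. The groups did not overlap, with Rarb-null array 1 just under wild-type array 1, and the difference was -0.34 with an interval from -0.66 to -0.02 (adjusted p in limma 0.908). Ndufaf1, another complex I assembly factor, differed by 0.12.

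**Figure D2:**
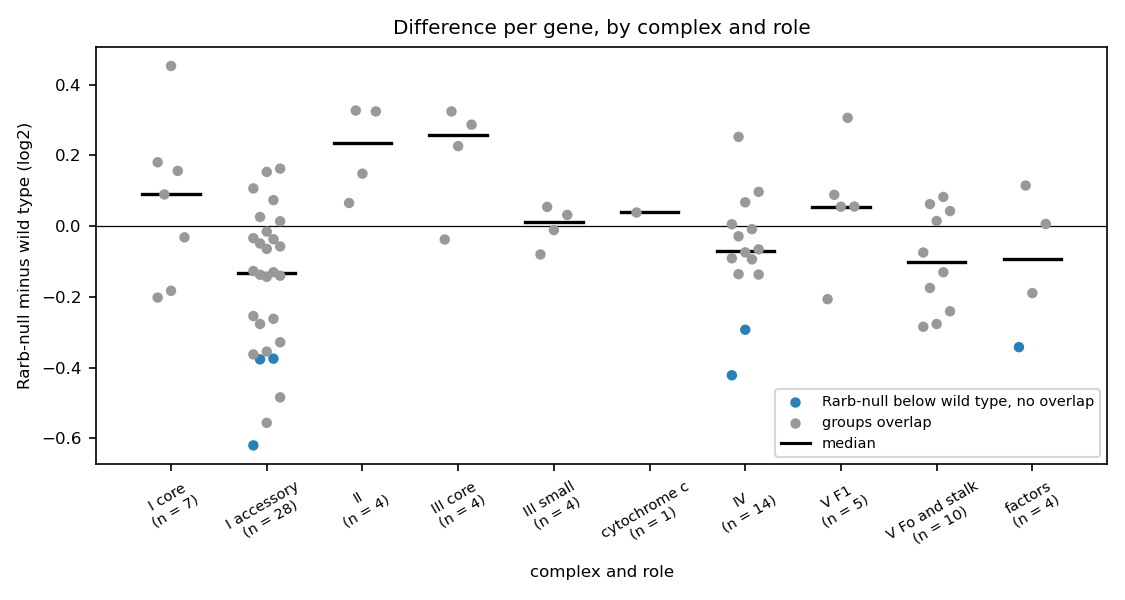
Each point is the difference (Rarb-null minus wild type, log2) of 1 gene, by complex and role, and the bar is the median. Medians run from -0.13 for the complex I accessory genes to 0.26 for the complex III core genes, and the 6 genes whose groups do not overlap (blue) all lie below 0.

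**Figure D3:**
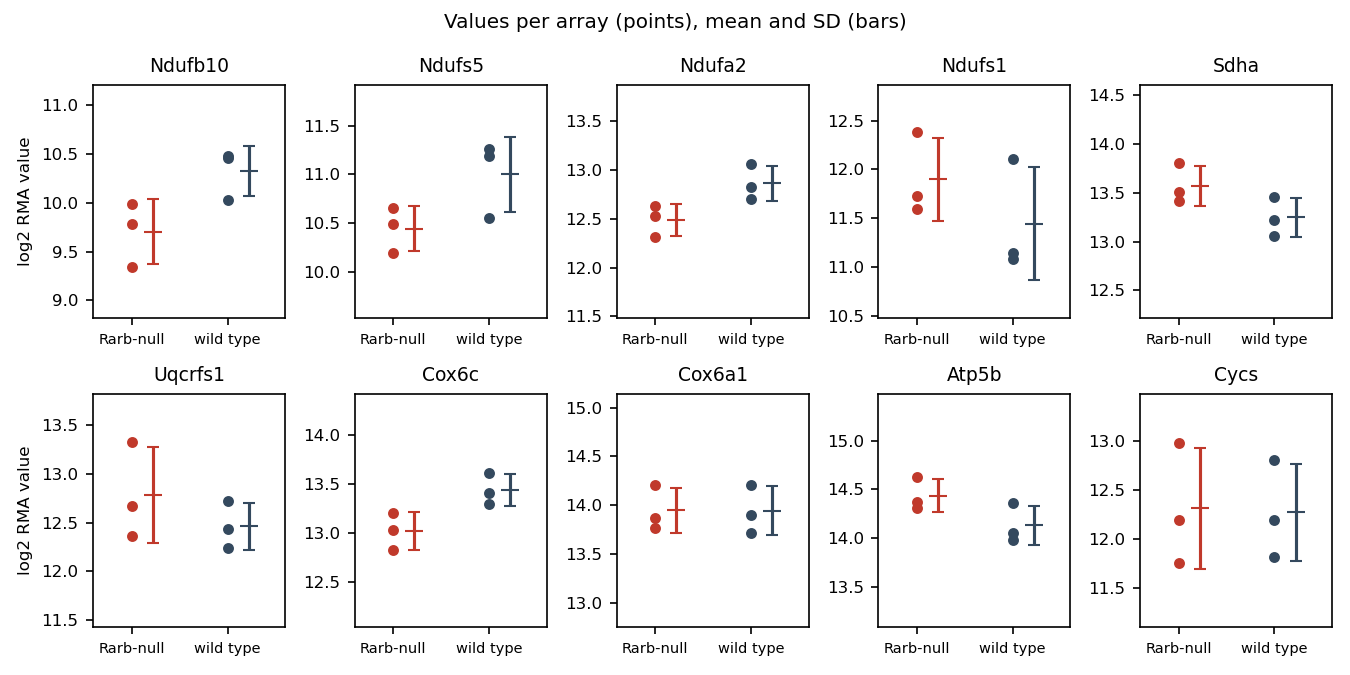
Log2 RMA values on each array (points) with mean and SD (bars, n = 3) for 10 of the genes described, Rarb-null left of wild type, each axis spanning the same log2 width. Ndufb10, Ndufa2 and Cox6c show no overlap, Sdha and Atp5b overlap through wild-type array 1, and Cox6a1 and Cycs cover the same range in both groups.

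The median range of a member over 6 arrays was 0.74, against 0.49 over all genes. Rarb-null array 3 was the highest for 51 of the 81 genes and Rarb-null array 2 the lowest for 52, while these arrays were the highest and lowest for 22.7% and 17.2% of all genes. Wild-type array 3 was the highest for 21 genes and wild-type array 2 the lowest for 20. The mean deviation of the 81 genes was -0.05, -0.30 and 0.26 on Rarb-null arrays 1 to 3 and 0.12, -0.15 and 0.12 on wild-type arrays 1 to 3. The Rarb-null arrays thus enclosed the wild-type arrays. Complex III had the widest spread of the complexes on Rarb-null arrays, from -0.30 to 0.49.

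The brown adipocyte list, whose 14 genes include Cox7a1 and Cox8b, had mean deviations of -0.13, -0.98 and 1.78 on Rarb-null arrays and 0.11, -0.81 and 0.02 on wild-type arrays. It was highest on Rarb-null array 3 and lowest on Rarb-null array 2, like the respiratory genes. Its mean level was 8.22, 7.37 and 10.14 on Rarb-null arrays and 8.47, 7.55 and 8.38 on wild-type arrays. Ucp1, the uncoupling protein that defines brown fat, read 8.64, 6.11 and 13.28 on Rarb-null arrays and 10.37, 7.29 and 9.49 on wild-type arrays. White adipocyte genes ran from -0.16 to -0.03 on Rarb-null arrays and from -0.27 to 0.29 on wild-type arrays, a wider spread on wild-type arrays than that of the respiratory genes. Mammary epithelium genes ran from -0.18 to 0.40 on Rarb-null arrays and from -0.79 to 0.54 on wild-type arrays. The fibroblast, lymphocyte and macrophage lists stayed between -0.23 and 0.14 on Rarb-null arrays and between -0.31 and 0.37 on wild-type arrays. The mean was higher on Rarb-null arrays for 11 of 14 brown adipocyte genes, 20 of 21 cycling cell genes, 10 of 12 mammary epithelium genes, 6 of 8 fibroblast genes and 4 of 8 macrophage genes. It was lower for 9 of 10 white adipocyte genes, 13 of 15 skeletal muscle genes and 7 of 10 lymphocyte genes. The groups overlapped at each gene of these lists except 2 lymphocyte genes, which were lower on Rarb-null arrays (20% of the list, beside 6.56% of all genes). When an array was left out, 7 to 10 of the 10 white adipocyte genes were lower, 8 to 11 of the 12 mammary epithelium genes were higher and 17 to 21 of the 21 cycling cell genes were higher. Without Rarb-null array 3 the brown adipocyte count was 3 of 14 higher, and without wild-type array 2 the skeletal muscle count was 1 of 15 lower. With the brown adipocyte mean as a covariate, a check added after the data had been seen, 16 of the 81 respiratory genes were higher on Rarb-null arrays, and with the cycling cell mean 51 were. These covariates are means from the same 6 arrays, and the brown adipocyte list holds Cox7a1 and Cox8b, so the fits do not test cell types. The part of these cell types in the differences between genotypes was not tested.

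**Figure D4:**
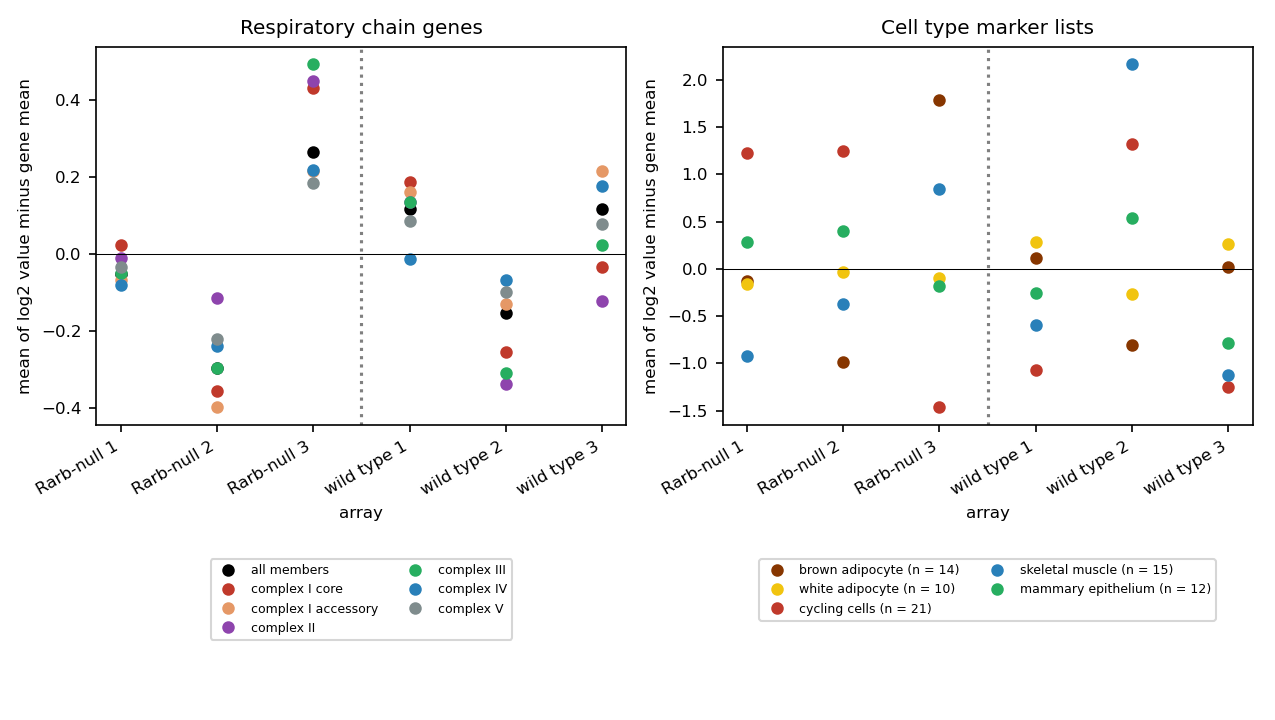
Mean deviation (log2 value minus the gene's mean over 6 arrays) of the member sets (left) and of cell type marker lists (right) on each array, Rarb-null left of the dotted line and wild type right of it. The member mean and the brown adipocyte list both peak on Rarb-null array 3, at 0.26 and 1.78, and are lowest on Rarb-null array 2, at -0.30 and -0.98, on scales of different width.

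Within an array, some sets stood differently to each other in the genotypes. These pairs were chosen after the values had been seen, so they are descriptions with no test. The complex II mean minus the complex I mean was 0.04, 0.28 and 0.19 on Rarb-null arrays and -0.03, -0.18 and -0.29 on wild-type arrays, with no overlap. When all probe sets of each gene were averaged, it was 0.05, 0.16 and 0.12 on Rarb-null arrays and -0.03, -0.10 and -0.20 on wild-type arrays, again with no overlap. The core minus the accessory mean of complex I was 0.09, 0.04 and 0.22 on Rarb-null arrays and 0.03, -0.13 and -0.25 on wild-type arrays. That pair did not overlap on the brightest probe sets, but did when all probe sets were averaged, where Rarb-null array 2 (0.0012) lay below wild-type array 1 (0.01). For complex III core minus small subunits, and for the F1 part minus the rest of complex V, the groups overlapped. Medians also varied by kind of probe set: 26 members on sets with the suffix _a_at had a median difference of -0.13, and 36 on sets with the plain suffix _at had 0.01. The 13 members on _s_at sets had 0.03 and the 6 on _x_at sets had -0.06. Kind of probe set was not separated from complex.

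**Figure D5:**
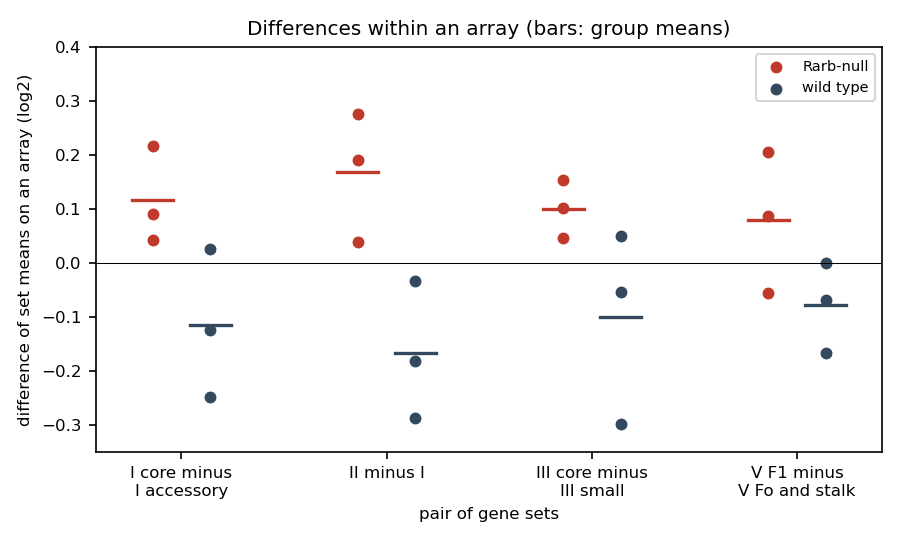
Points are the difference between the mean deviations of a pair of gene sets on 1 array (log2), Rarb-null left of wild type in each pair, and bars are group means. For complex II minus complex I the Rarb-null arrays lie from 0.04 to 0.28 and the wild-type arrays from -0.29 to -0.03.

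Other mitochondrial pathways, from lists of named genes, were split in direction, and none of their genes passed the threshold in limma. Citric acid cycle and pyruvate dehydrogenase genes, which feed NADH and succinate to the chain, were higher in 15 of 17 with a median difference of 0.22; without Rarb-null array 3 it was 8 of 17. Suclg2, a subunit of the ligase that makes succinate, averaged 11.69 ± 0.16 on Rarb-null arrays and 11.48 ± 0.07 on wild-type arrays (SD, n = 3 each), with no overlap between the groups. The interval of the Suclg2 difference ran from -0.06 to 0.50. Mitochondrial ribosome genes, which translate the subunits made from mitochondrial DNA, were lower in 64 of 78 with a median of -0.14, and in 51 to 74 of 78 when an array was left out. Their groups did not overlap at 15 genes lower and 1 higher on Rarb-null arrays, 19.2% and 1.28% of the list, beside 6.56% and 4.03% of all genes. Mrps6 averaged 12.53 ± 0.13 on Rarb-null arrays and 13.17 ± 0.30 on wild-type arrays (difference -0.64), and Mrpl41 averaged 10.13 ± 0.33 and 10.75 ± 0.20, a difference of -0.63 (SD, n = 3 each; adjusted p in limma 0.908 for both). Carriers, channels and import genes were higher in 14 of 22 (median 0.06), and their smallest unadjusted p belonged to Slc25a11, the oxoglutarate carrier (difference 0.52), and the import receptor Tomm22 (-0.24). Other assembly factors were higher in 17 of 30 (median 0.09), and their smallest unadjusted p belonged to Uqcc2 (-0.30) and Cox17 (-0.36), both lower. The other probe set of Uqcc2 had the same sign, while those of Cox17 and Tomm22 had the opposite sign. Without Rarb-null array 3 these lists had 10 of 22 and 13 of 30 genes higher.

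Among 21 regulators of respiration, 11 were higher and 10 lower with a median of 0.06, and 3 (14.3%) did not overlap between the groups, each higher on Rarb-null arrays, beside 4.03% of all genes higher and 6.56% lower. Esrrg, an estrogen-related receptor that binds the ERR element, read 8.19, 8.13 and 8.42 on Rarb-null arrays and 7.43, 7.78 and 7.03 on wild-type arrays. Its difference was 0.84 with an interval from 0.37 to 1.30, the unadjusted p was 0.0036 and the adjusted p in limma 0.908, and both of its other probe sets were higher too. Nrf1 read 9.95, 9.82 and 9.98 on Rarb-null arrays and 9.32, 9.59 and 9.71 on wild-type arrays; the difference was 0.38 with an interval from 0.06 to 0.69. Gabpa, the DNA-binding part of the ETS factor GABP, read 10.90, 10.79 and 10.98 on Rarb-null arrays and 10.73, 10.73 and 10.30 on wild-type arrays. Its difference was 0.30 with an interval from -0.05 to 0.65, and Rarb-null array 2 lay just above wild-type array 1. The other probe set of Gabpa and 3 of the other 4 of Nrf1 had the same sign. Ppargc1a, the coactivator that drives mitochondrial gene expression and is also in the brown adipocyte list, averaged 8.29 ± 0.59 on Rarb-null arrays and 8.18 ± 0.65 on wild-type arrays (SD, n = 3 each). Ppargc1b differed by 0.07, Esrra by 0.14 and Tfam, which packs and transcribes mitochondrial DNA, by 0.15. For all 3 the groups overlapped.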

How the data were processed

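Total RNA of 6 samples, 3 Rarb-null and 3 wild type, was labelled with biotin and hybridised to Affymetrix arrays, per the labels' protocols. The authors' deposited log2 values come from RMA, according to the submitters' processing notes. RMA draws the arrays to a common distribution, which would remove a shift shared by most transcripts, and compresses small differences of dim probe sets. A second deposited table gives gene symbols and, per the file headers, the authors' log2 fold change and p-value. Per the file headers, its score is the d statistic that the authors computed with SAM between Rarb-null and wild type. The authors' fold changes equalled the differences of group means within 7.4e-06. No detection flags were used here, and the number of arrays limits the precision.

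Of 45101 probe sets, 64 controls were left out and 45037 were compared with limma 3.58.1 in R 4.3.3 (two-sided, lmFit and eBayes without covariates). P-values were adjusted after Benjamini-Hochberg over all of them at a threshold of 0.05. The authors' symbols were kept; 4 members have newer ones. The procedure was tested on simulated data for this comparison: among 200 changed of 45037 probe sets it recovered 55% of those changed by 1 log2 unit and 90% of those changed by 2, with 4 false calls. The simulated noise was independent for each probe set, whereas genes such as the cycling cell genes varied together on the real arrays. The recovery rates may therefore not hold for the real arrays. Members and lists were chosen with earlier results of these data known, and so were the rules. Genes were named by a list of subunits and regulators, plus in each complex the members with the smallest p, the highest and lowest difference and the widest range; other lists named their 2 genes of smallest p. Ndufs3, Ndufs8, Ndufa2, Ndufa5, Ndufb2, Ndufs5, Ndufc2, Cox6b2 and the single markers were named after their values were seen. The grouping by role within a complex was also made then. The values of 2 named genes are not reported here. No coordinate was compared with the arrays; the promoters are RefSeq's on GRCm38.p6. Alternatives were a further quantile normalization, centring on the array median, 2 filters on dim probe sets, a trended robust prior, array weights, a replicate block, leaving out each array, averaging a gene's probe sets, and other memberships. Plots used matplotlib 3.10.9 in Python 3.11.15.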

Additional observations from a re-analysis of the deposited data

How the results depend on the processing

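No named gene was called under any of the alternatives, where the smallest adjusted p in limma with an array left out was 0.35. Probe sets past the threshold numbered 0 to 1 with an array left out (1 without Rarb-null array 2) and 0 in the other fits. Whether the replicate numbers pair the samples is not known. The deviations of same-numbered arrays correlated at -0.20, 0.45 and 0.29, and those of differently numbered arrays at -0.54 to 0.38, which cannot decide it. With the number as a block in limma 0 probe sets were called, with 3418 at an unadjusted p under 0.05. The members' median ran from -0.19 to 0.10 with an array left out, and the number with a higher mean from 14 to 58. That number was 20 with array weights, 16 with the brown adipocyte covariate and 51 with the cycling cell covariate; the cause was not tested. Medians with an array left out ran from -0.15 to 0.12 in complex V, -0.28 to 0.05 in I, 0.04 to 0.36 in II, -0.14 to 0.27 in III and -0.19 to 0.06 in IV. So the median of complex II alone kept its sign, on the brightest probe sets of 4 genes. Only 2 of these genes were higher without Rarb-null array 3 or without wild-type array 2. The other probe sets of complex II were 1 higher and 3 lower in the main fit.

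Of 41 named genes, 17 kept their sign whichever array was left out. The others ranged, in log2, as follows: Ndufs7 -0.45 to 0.026, Ndufv1 -0.065 to 0.32, Ndufb5 -0.25 to 0.14, Sdhb -0.10 to 0.32, Sdhc -0.11 to 0.16, Uqcrc2 -0.23 to 0.12, Uqcr -0.34 to 0.13, Uqcrq -0.32 to 0.39, Cycs -0.30 to 0.32, Cox4i1 -0.19 to 0.067, Cox4i2 -0.11 to 0.11, Cox5b -0.031 to 0.21, Cox6a1 -0.12 to 0.14, Cox6a2 -0.32 to 0.18, Cox6b1 -0.29 to 0.041, Cox7a2 -0.34 to 0.021, Cox8a -0.25 to 0.044, Atp5c1 -0.092 to 0.15, Atp5g2 -0.12 to 0.12, Atp5o -0.18 to 0.26, Atp5l -0.36 to 0.18, Ndufaf1 -0.11 to 0.24, Cox7a1 -0.96 to 1.24 and Cox8b -0.63 to 0.49. With array weights the sign also turned for Sdhc (-0.049), Cycs (-0.14), Cox6a1 (-0.045), Atp5c1 (-0.030), Atp5g2 (-0.060), Atp5o (-0.070), Uqcrq (-0.097) and Cox7a1 (-0.34). With the brown adipocyte covariate it turned for Sdhb (-0.0042), Sdhc (-0.032), Cycs (-0.18), Cox6a1 (-0.078), Atp5c1 (-0.034), Atp5g2 (-0.056), Atp5o (-0.068), Uqcrq (-0.19), Ndufaf1 (-0.0023) and Cox7a1 (-0.49). With the cycling cell covariate it turned for Ndufb5 (0.039), Uqcrc2 (0.078), Cox4i2 (0.061), Cox8a (0.0087), Uqcr (0.10), Atp5l (0.080) and Cox8b (0.32). With each array centred it turned for Cox6a1 (-0.019) and Atp5g2 (-0.0099). Both covariates were chosen after seeing the data. The cause of these turns was not tested.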
